A study of Homo sapiens with 9 samples.

Results

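The replication-dependent histone genes encode the bulk of the core histones H2A, H2B, H3 and H4 and the linker histone H1 that package new DNA. They were followed here in the human breast cancer line MDA-MB-231, started long ago from cells of a pleural effusion, with and without YM-155 (sepantronium bromide), a compound known for lowering the level of survivin, an inhibitor of apoptosis. Members were the genes named H1-1 to H1-6 or with a symbol made of H2AC, H2BC, H3C or H4C and a number, as long as a probe set on the array carried that symbol alone. This gave 28 genes of the 22109 tested, made up of 6 H1, 7 H2A, 13 H2B, 1 H3 and 1 H4 gene. The reference annotation holds 69 symbols of this kind, and the other 41 were represented only by probe sets that carried several histone symbols, described separately. The 9 arrays were Affymetrix whole-transcript arrays, with 3 from untreated cells (control), 3 from cells given YM-155 in small additions up to a total of 83 ng/ml and collected at 8 h, and 3 from cells given 14.6 ng/ml, its LC50, and collected at 20 h. All 3 groups were the same line with no genetic change named. Dose and time differed together, so neither can be separated, and no vehicle or collection time was given for the controls. Whether the replicates were separate cultures is not stated in the labels, and each p-value therefore rests on the spread among these arrays alone, which may be technical.

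Histone genes of this family are switched on as cells enter S phase, so that histone supply matches DNA synthesis. Their genes lie in clusters and have no introns, and their mRNAs end in a conserved stem-loop instead of a poly(A) tail. The stem-loop is bound by SLBP and the end is cut with the help of the U7 small nuclear ribonucleoprotein. When DNA synthesis stops, these mRNAs are normally degraded within a short time. Some of the genes, among them H2AC6, H2BC5, H2BC12 and H2BC21, are also known to give polyadenylated transcripts outside S phase. The labelling kit named in the labels primes along the transcript, so it takes up RNA with and without a poly(A) tail and does not tell them apart. The coding sequences of a class are nearly identical between genes, so signal from one gene's RNA on another gene's probes is possible, and each value below is that of a probe set.

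Promoters of the genes on which the results turn are shown first, because they include a stretch shared by 2 genes that moved in opposite directions. RefSeq start sites (GRCh38.p14) gave a promoter window for 27 of the 28 genes, 20 on chromosome 6 and 7 on chromosome 1. H2AC12 had no window. In the 250 bases upstream of the start, searched on both strands, TATAAA, a core promoter element, was found in 19 of 27 windows, or 70.4%, against 10.7% of the 35116 windows of all genes. CCAAT, of the type bound by NF-Y, was found in 26 of 27, or 96.3%, against 32.0% of all windows. ATTTGCAT, the octamer, of the type bound by OCT1, was found in 14 of 27, or 51.9%, against 1.63% of all windows. The octamer was in 9 of 13 H2B and 5 of 6 H2A windows and in 0 of 6 H1 windows. Windows of genes that lie head to head overlap, so 1 site can count for both genes. The octamer 48 bases before the H2BC14 start, for example, is the one 204 bases before the H2AC14 start. The windows are therefore not independent of each other. A match is a description of these letters and says nothing of binding in these cells.

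The promoters of the gene with the largest rise at 20 h (H2BC18), of the H3 gene (H3C13) and of the H2A gene with the largest fall (H2AC21) follow, each the 120 bases before the start site, 5′ to 3′ on the gene's own strand. They lie at chr1:149812371-149812490, chr1:149813694-149813813 and chr1:149887966-149888085 of GRCh38.p14, all on the minus strand. Capitals mark these 3 motifs on either strand.
H2BC18: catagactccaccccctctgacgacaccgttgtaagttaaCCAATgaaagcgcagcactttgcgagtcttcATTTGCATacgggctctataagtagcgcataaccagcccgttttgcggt
H3C13: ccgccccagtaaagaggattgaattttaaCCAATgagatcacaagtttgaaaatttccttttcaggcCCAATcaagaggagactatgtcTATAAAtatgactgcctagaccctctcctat
H2AC21: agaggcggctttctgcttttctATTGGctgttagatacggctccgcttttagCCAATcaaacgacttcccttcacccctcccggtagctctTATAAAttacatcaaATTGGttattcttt

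H2A and H2B genes often lie head to head and share the sequence between their start sites. The stretch shared by H2BC21 and H2AC20, 235 bases at chr1:149886683-149886917 (GRCh38.p14, minus strand, read towards H2BC21), and the stretch shared by H2AC14 and H2BC14, 244 bases at chr6:27814778-27815021 (plus strand, read towards H2BC14), are shown for the contrast between the pairs. Capitals mark the same motifs.
H2BC21 and H2AC20: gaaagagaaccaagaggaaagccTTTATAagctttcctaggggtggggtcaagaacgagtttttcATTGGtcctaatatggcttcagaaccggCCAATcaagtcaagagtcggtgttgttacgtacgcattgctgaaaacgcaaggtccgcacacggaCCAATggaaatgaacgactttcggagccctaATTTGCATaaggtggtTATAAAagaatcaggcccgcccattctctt
H2BC14 and H2AC14: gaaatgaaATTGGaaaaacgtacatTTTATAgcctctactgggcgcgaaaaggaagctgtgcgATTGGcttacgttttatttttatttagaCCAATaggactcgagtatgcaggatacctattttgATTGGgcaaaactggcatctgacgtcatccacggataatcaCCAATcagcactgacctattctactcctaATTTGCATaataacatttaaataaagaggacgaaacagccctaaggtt

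The deposited values were log2 RMA levels, for which a difference of 1 is a 2-fold change, and the median level of all genes was 3.89. Signal also depends on the probes, so tests compare groups for the same probe set, and a signal that is high or low among genes only describes the probe sets and gives no order of RNA amounts. The number of arrays limits the precision. Differences were tested in limma over all 22109 genes and called at an adjusted p under 0.05 (Benjamini-Hochberg). SE is limma's moderated standard error. Markers named for this basal-like line read 8.57 (VIM), 9.06 (CD44), 9.42 (EGFR), 5.35 (KRT18) and 5.10 (KRT8) in controls. Markers of luminal epithelium, which the line is known to lack in part, read 2.77 (ESR1), 2.04 (PGR), 2.37 (FOXA1), 4.40 (CDH1), 4.47 (GATA3) and 6.16 (EPCAM), the last 3 above the median of all genes. Of 4 measured leukocyte markers, CD14 (3.16 in controls and 3.93 at 20 h) and ITGAM (2.23 and 2.68) were called higher at 20 h, PTPRC stayed between 1.75 and 1.79 in the group means and CD3E between 1.85 and 1.95, and their part in the histone results was not tested. Of the endothelial and fibroblast markers measured, KDR fell from 5.37 in controls to 4.76 at 20 h, and CDH5, DCN and LUM were not called. Control replicate 3 stood apart. It was the highest control for 17 of the 28 histone genes, with a median of 0.16 above the mean of controls 1 and 2, against 0.01 over all genes. Counts of the 28 histone genes without it are given beside each comparison. In bulk RNA a smaller share of cells in S phase and less histone RNA per cell cannot be told apart.

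The first comparison asked how histone transcripts differed in cells collected at 8 h. Of the 28 genes, 8 fell and 0 rose, with a median difference of -0.17 against -0.003 for all genes. Over all genes 12.2% were called in this comparison, 6.28% lower and 5.93% higher. Without the adjustment the counts in limma were the same, 8 lower and 0 higher. The 8 genes were 2 of 6 H1, 3 of 7 H2A and 3 of 13 H2B genes, and all 8 were among the 14 members above the median level of all genes. Without control replicate 3, 6 fell, each among the 8. Without 8 h replicate 3, 5 fell.

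At 20 h the genes moved both ways. Of the 28, 12 rose and 6 fell, with a median difference of 0.22 against 0.028 for all genes. Over all genes 30.3% were called, 13.1% higher and 17.2% lower. A change of at least 2-fold was seen in 5 genes that rose and 2 that fell, against 2.65% and 3.91% of all genes. By class, 6 of 13 H2B genes rose and 1 fell, and 1 of 7 H2A genes rose and 3 fell. Of the 6 H1 genes 4 rose and 2 fell, the H3 gene rose and the H4 gene was not called. The 4 H1 genes that rose read between 1.53 and 2.60 on every array, far below the median of all genes. Without control replicate 3, 10 of the 28 rose, all among the 12, and 6 fell, 5 of them among the 6. The 2 comparisons share the control arrays, so their values are given side by side and no overlap between them is counted.

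**Figure D1:**
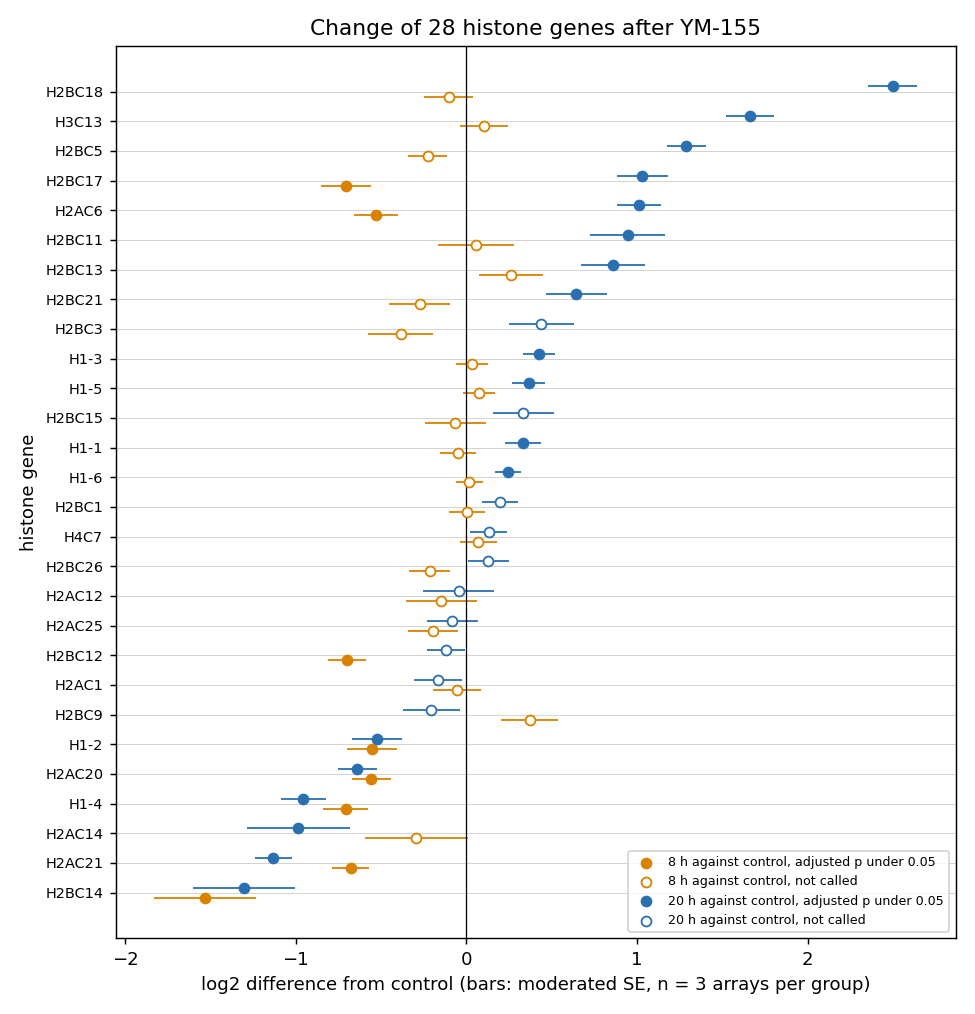
Difference from control (log2) for each of the 28 histone genes at 8 h (orange) and 20 h (blue), with the moderated SE as bars (n = 3 arrays per group), ordered by the 20 h difference; filled points had an adjusted p under 0.05. The 20 h differences run from -1.30 for H2BC14 to 2.50 for H2BC18, and no filled 8 h point lies above 0.

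The comparison of 20 h with 8 h tests the difference between the treated groups without the controls. Here 12 of 28 genes were higher at 20 h and 2 lower, with a median difference of 0.32 against 0.019 for all genes. Over all genes 22.6% were called, 8.95% higher and 13.6% lower. The H2B class accounted for 8 of the 12 higher genes. Without control replicate 3, which then enters only through the shared spread, 14 were higher and 2 lower. Without 8 h replicate 1, 0 were lower, and without 8 h replicate 2, 8 h replicate 3 or 20 h replicate 2, 1 was.

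Among the linker histones, H1-4 encodes a main somatic H1. Its level was 9.87, 9.86 and 10.21 on the 3 control arrays, 9.36, 9.36 and 9.10 at 8 h, and 9.11, 9.17 and 8.80 at 20 h. Both treated groups lay wholly below the controls. It fell by 0.71 at 8 h (SE 0.13, limma adjusted p = 0.00682) and by 0.96 at 20 h (adjusted p = 0.000319). H1-2, the other H1 gene above the median level, had 7.91, 8.06 and 8.48 in controls, 7.61, 7.74 and 7.44 at 8 h, and 7.56, 7.53 and 7.78 at 20 h. The control with the highest H1-2 value was replicate 3. H1-2 fell by 0.52 at 20 h (limma adjusted p = 0.0206) and by 0.55 at 8 h (adjusted p = 0.0357), but both calls were near the threshold. The 8 h call was lost in 10 of 19 alternatives, among them the fit without control replicate 3 (adjusted p = 0.0646) and that without 8 h replicate 3 (0.129), and the 20 h call was lost without 20 h replicate 1 or 2 (limma adjusted p = 0.0665 and 0.0724).

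The other 4 H1 genes, H1-1, H1-3, H1-5 and the testis histone gene H1-6, read between 1.53 and 2.60 on every array, far below the median of all genes. They rose at 20 h by 0.42 (H1-3), 0.36 (H1-5), 0.33 (H1-1) and 0.24 (H1-6), with limma adjusted p between 0.00544 and 0.0360. Of these 4 calls, those for H1-1 and H1-6 were lost under the most alternatives, among them the fit without control replicate 3 (adjusted p = 0.0795 and 0.0715).

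Among the H2A genes, H2AC20, which had the highest H2A signal, read 10.09, 10.20 and 10.32 in controls, 9.70, 9.70 and 9.54 at 8 h, and 9.58, 9.75 and 9.35 at 20 h. It fell by 0.56 at 8 h (SE 0.11, limma adjusted p = 0.00964) and by 0.64 at 20 h (adjusted p = 0.00145), with no overlap between controls and treated arrays. The 2 treated groups overlapped. H2AC21, a further H2A gene on chromosome 1 whose promoter is shown above, read 8.32, 8.42 and 8.44 in controls, 7.86, 7.71 and 7.57 at 8 h, and 7.44, 7.26 and 7.09 at 20 h. The 3 groups were separate and stepped down in that order. H2AC21 fell by 0.68 at 8 h (SE 0.11, limma adjusted p = 0.00281), fell by 1.13 at 20 h (adjusted p = 2.56e-05) and differed by -0.45 between 20 h and 8 h (adjusted p = 0.0127).

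H2AC6 turned from lower to higher. This H2A gene, known to give polyadenylated transcripts too, read 6.32, 6.32 and 6.51 in controls, 6.04, 5.85 and 5.66 at 8 h, and 7.58, 7.41 and 7.17 at 20 h. No 2 groups overlapped. It fell by 0.53 at 8 h (SE 0.13, limma adjusted p = 0.0229) and rose by 1.01 at 20 h (adjusted p = 0.000168), and the treated groups differed by 1.54 (adjusted p = 3.14e-05). The 8 h call was lost without control replicate 3 (adjusted p = 0.0639), and also without control replicate 1 or without 8 h replicate 2 or 3. H2AC14 read 3.83, 4.01 and 4.16 in controls, 3.90, 4.0 and 3.22 at 8 h, and 3.76, 2.79 and 2.50 at 20 h. It fell by 0.98 at 20 h (SE 0.30, limma adjusted p = 0.0310), with 20 h replicate 1 close to the controls, and that call was lost in 5 of the 9 fits that left out an array (adjusted p up to 0.122). The other 3 H2A genes, the testis gene H2AC1, H2AC12 and H2AC25, were not called in any comparison.

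**Figure D2:**
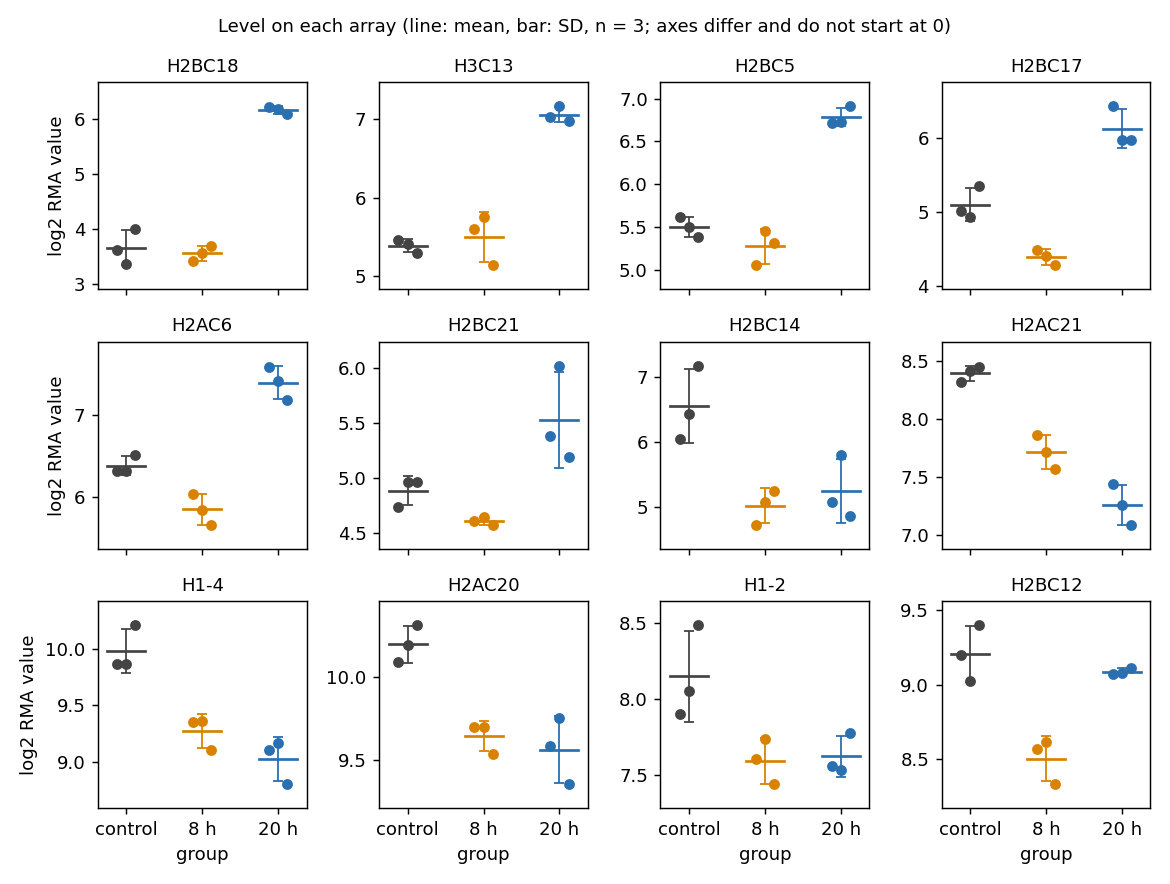
Level on each array (log2 RMA) of 12 histone genes in control, 8 h and 20 h cells, with the mean as a line and the SD as a bar (n = 3); the vertical axes differ between panels and do not start at 0. H2BC18, H3C13 and H2BC5 are higher only at 20 h, H2BC17 and H2AC6 lie below control at 8 h and above it at 20 h, and H2AC21 steps down over the 3 groups.

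The H2B genes held 6 of the 12 rises from control at 20 h. H2BC18 read 3.61, 3.37 and 4.0 in controls, 3.42, 3.56 and 3.68 at 8 h, and 6.21, 6.18 and 6.08 at 20 h. Control and 8 h arrays overlapped and the 20 h arrays lay more than 2 log2 units above both. It rose by 2.50 at 20 h (SE 0.14, limma adjusted p = 1.0e-06), while the 8 h difference was -0.10 (adjusted p = 0.746). H2BC18 was the only member with more than 1 probe set of its own, and the other 2 also rose at 20 h, by 1.83 and 1.46 (adjusted p = 5.43e-06 and 1.83e-05 in a fit over all single-symbol probe sets).

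H2BC5, a core H2B gene known to give polyadenylated transcripts as well, read 5.61, 5.50 and 5.39 in controls, 5.05, 5.45 and 5.32 at 8 h, and 6.72, 6.73 and 6.91 at 20 h. The 20 h arrays lay above all others, while 8 h and control arrays overlapped. It rose by 1.29 at 20 h (SE 0.11, limma adjusted p = 1.58e-05), and at 8 h the difference was -0.23 (adjusted p = 0.267). H2BC17 read 5.01, 4.93 and 5.35 in controls, 4.49, 4.40 and 4.28 at 8 h, and 6.43, 5.98 and 5.98 at 20 h. As for H2AC6, its 3 groups were separate, with 8 h lowest and 20 h highest. H2BC17 fell by 0.71 at 8 h (SE 0.15, limma adjusted p = 0.0115), rose by 1.03 at 20 h (adjusted p = 0.000383) and differed by 1.74 between the treated groups (adjusted p = 3.60e-05). Its 8 h call was lost without 8 h replicate 3 (adjusted p = 0.0508).

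H2BC11 and H2BC13 read below the median level of all genes. H2BC11 had 2.40, 2.66 and 2.86 in controls, 2.49, 2.82 and 2.78 at 8 h, and 3.36, 4.16 and 3.24 at 20 h, a rise of 0.94 at 20 h (SE 0.22, limma adjusted p = 0.00808). H2BC13 had 3.15, 2.65 and 2.62 in controls, 3.11, 3.06 and 3.04 at 8 h, and 3.56, 4.09 and 3.35 at 20 h, a rise of 0.86 (SE 0.19, adjusted p = 0.00539). In both, 20 h replicate 2 was the highest array, and the 20 h arrays did not overlap the controls. H2BC21 showed the same high replicate, with 4.73, 4.96 and 4.96 in controls, 4.61, 4.64 and 4.58 at 8 h, and 5.38, 6.02 and 5.19 at 20 h. It rose by 0.64 at 20 h (SE 0.18, limma adjusted p = 0.0196), a call lost without control replicate 1 or with only the 2 groups compared in the fit (adjusted p up to 0.0741).

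H2BC14 had the largest fall. This gene of the chromosome 6 cluster read 6.05, 6.42 and 7.17 in controls, 4.72, 5.08 and 5.25 at 8 h, and 5.07, 5.80 and 4.87 at 20 h. All treated arrays lay below all controls, and replicate 3 was the highest of the controls. The treated groups overlapped. H2BC14 fell by 1.53 at 8 h (SE 0.30, limma adjusted p = 0.00826) and fell by 1.30 at 20 h (adjusted p = 0.00709). H2BC12 had the highest H2B signal and fell at 8 h alone. It read 9.20, 9.02 and 9.40 in controls, 8.57, 8.61 and 8.33 at 8 h, and 9.07, 9.08 and 9.11 at 20 h, within the range of the controls. The fall at 8 h was by 0.70 (SE 0.11, limma adjusted p = 0.00260), the 20 h difference from control was -0.12 (adjusted p = 0.477), and 20 h exceeded 8 h by 0.58 (adjusted p = 0.00390).

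Of the remaining 5 H2B genes, none was called against control at either time. With the replicate number as a block, H2BC3 was called lower at 8 h (limma adjusted p = 0.0424) and higher at 20 h (0.00946), and H2BC15 higher at 20 h (0.0472). H2BC3 read 4.27, 4.36 and 3.83 in controls, 3.76, 4.01 and 3.54 at 8 h, and 4.50, 4.96 and 4.33 at 20 h. It was higher at 20 h than at 8 h by 0.82 (limma adjusted p = 0.0113) and H2BC9 lower by -0.58 (adjusted p = 0.0317). H2BC9 had its lowest control in replicate 3 (3.16, 3.06 and 2.45), and without that array it was called lower than control at 20 h, with a difference of -0.42 (adjusted p = 0.0133). H2BC1, a testis gene, was not called in any comparison, and H2BC15 only with the block. H2BC26 was not called in the main fit. It was called higher at 20 h than at 8 h without control replicate 3 (limma adjusted p = 0.0433) and with the arrays weighted in the fit (0.0324).

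H3C13, which encodes histone H3.2, was the only H3 gene with a probe set of its own. It read 5.47, 5.41 and 5.29 in controls, 5.60, 5.75 and 5.14 at 8 h, and 7.02, 7.16 and 6.98 at 20 h. The 20 h arrays lay above all others. It rose by 1.66 at 20 h (SE 0.14, limma adjusted p = 1.20e-05), and its 8 h arrays spread around the controls (difference 0.10, adjusted p = 0.738). The only H4 member, H4C7, read 1.56, 1.5 and 1.56 in controls, 1.58, 1.67 and 1.57 at 8 h, and 1.93, 1.51 and 1.57 at 20 h, which is among the lowest values on the array. Its differences were 0.07 at 8 h and 0.13 at 20 h and were not called.

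The pairs that share a promoter stretch differed in how they moved. H2BC21 rose by 0.64 and H2AC20 fell by 0.64 at 20 h, with at 8 h a difference of -0.27 for H2BC21 (adjusted p = 0.415 in limma) and a fall for H2AC20. H2BC14 fell by 1.30 and H2AC14 fell by 0.98 at 20 h. At 8 h H2BC14 fell by 1.53, while H2AC14 was not called (difference -0.29, limma adjusted p = 0.636). The 20 h calls of H2BC21 and H2AC14 were each lost under some alternatives, which limits the contrast between the pairs. The other 2 head-to-head pairs, H2AC1 with H2BC1 and H2AC25 with H2BC26, were not called against control. H2BC18 and H3C13, both higher at 20 h, have start sites close together on chromosome 1, and H2AC21, lower at 20 h, lies in the same region.

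Split at the median level of all genes, the 14 members above it had 8 lower and 0 higher at 8 h, and 6 higher and 5 lower at 20 h. The 14 below it had none called at 8 h in limma, also without the adjustment, and 6 higher and 1 lower at 20 h. Over all genes, 6.28% were lower and 5.93% higher at 8 h, and 13.1% were higher and 17.2% lower at 20 h. Shares of all genes on the same side of the median are not given here. The signal of a probe set depends on its probes and on cross-hybridisation as well as on the amount of RNA, and their part in these counts was not tested.

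**Figure D3:**
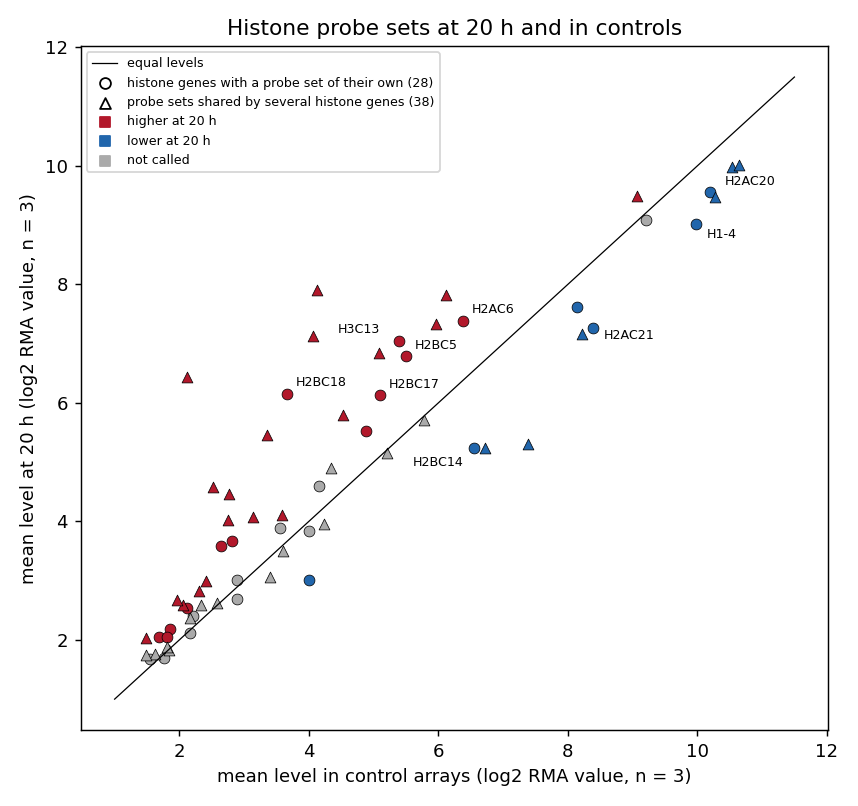
Mean level at 20 h against mean level in controls (log2 RMA, n = 3 each) for the 28 histone genes (circles) and the 38 shared histone probe sets (triangles), with the line of equal levels; colour gives the call of 20 h against control. Red points, above the line, are the 12 histone genes and 19 shared probe sets that rose at 20 h, and blue points, below it, are the 6 and 6 that fell.

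Most H3 and H4 genes could be followed only through probe sets that carried several histone symbols. There were 40 such probe sets of histone genes alone, of which 38 were distinct, since 2 pairs held identical values on every array. They were tested in a limma fit over all 25713 annotated probe sets, a step added after the data were seen, and no gene is named from them. At 8 h, 9 of 38 fell and 0 rose (1 higher without the adjustment), against 6.12% lower and 5.68% higher over all annotated probe sets (11.8% in all). At 20 h, 19 rose and 6 fell, against 13.4% and 16.5% (29.8% in all), with a median difference of 0.47. Of the rises 11 were at least 2-fold, and of the falls 3. Over all genes in the main fit, 2.65% rose and 3.91% fell at least 2-fold at 20 h. That share was not counted over all annotated probe sets. Between 20 h and 8 h, 20 were higher at 20 h and 2 lower (1 without 8 h replicate 1, 8 h replicate 3 or 20 h replicate 1), against 9.31% and 12.9% (22.2% in all).

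The largest rise in the family was in probe set 17005862, which carried 10 H3 symbols. It read 2.35, 1.99 and 2.03 in controls, 2.40, 2.66 and 2.04 at 8 h, and 6.25, 6.68 and 6.39 at 20 h, a rise of 4.32 at 20 h (SE 0.17, limma adjusted p = 1.64e-07). Probe set 17016360, with 14 H4 symbols, read 4.20, 4.35 and 3.85 in controls, 3.43, 4.18 and 4.37 at 8 h, and 7.93, 7.95 and 7.81 at 20 h, a rise of 3.76 (SE 0.22, adjusted p = 1.23e-06). In both, control and 8 h arrays overlapped and the 20 h arrays stood far above. The H4 class, whose 1 member above was near the lowest signal, thus had 8 of 13 shared probe sets higher and 2 lower at 20 h. For H3 the counts were 4 higher and 2 lower of 10, for H2A 4 and 2 of 9 and for H2B 3 and 0 of 5. The probe set that held both H2A and H3 symbols was not called.

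The largest fall was in probe set 17005858, with 6 H2A symbols, which read 7.26, 7.43 and 7.45 in controls, 6.38, 6.34 and 6.22 at 8 h, and 4.94, 5.75 and 5.25 at 20 h. It fell by 1.07 at 8 h (SE 0.17, limma adjusted p = 0.00302) and by 2.07 at 20 h (adjusted p = 1.16e-05), with separate groups. Probe set 17016366, with 2 H2A symbols, fell at 8 h and lay close to the controls at 20 h. It read 5.63, 5.80 and 5.89 in controls, 4.15, 4.34 and 4.07 at 8 h, and 5.62, 5.82 and 5.71 at 20 h, with a difference of -1.59 at 8 h (SE 0.10, limma adjusted p = 1.85e-05) and of -0.06 at 20 h (adjusted p = 0.719). Probe sets that carry the same symbols also differed in direction. Among those with 14 H4 symbols, 17016494 fell by 0.63 at 20 h from control values of 10.52, 10.60 and 10.82 to 10.00, 10.07 and 10.00 (limma adjusted p = 0.000670), and 17005560 rose by 0.43 from 8.97, 8.92 and 9.31 to 9.55, 9.47 and 9.46 (adjusted p = 0.0106).

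**Figure D4:**
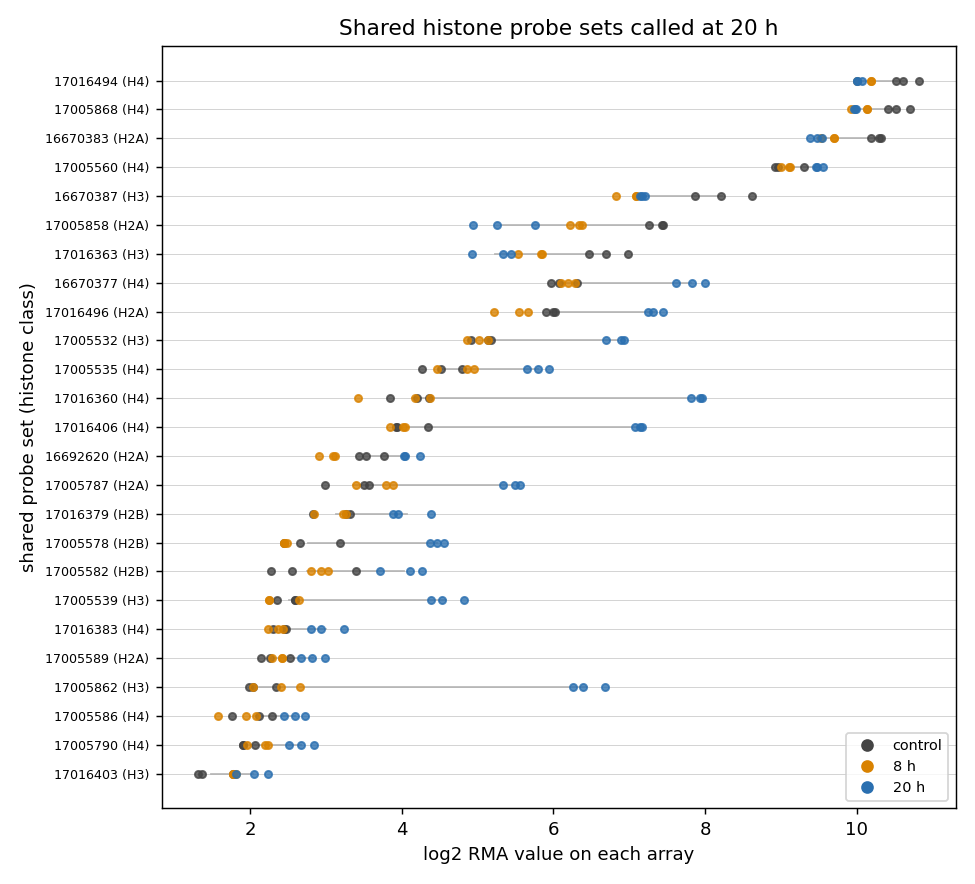
Value on each array (log2 RMA) of the 25 distinct shared histone probe sets called at 20 h against control, in control (grey), 8 h (orange) and 20 h (blue) cells, with a line joining the control and 20 h means. The 20 h values of 17005862 (H3) and 17016360 (H4) stand furthest above their controls, and 17005858 (H2A) stands furthest below.

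The histone variants, which are made outside S phase as well, were a small list of 12 measured genes of 18 listed. At 20 h 2 rose and 2 fell, a share near that over all genes (13.1% higher and 17.2% lower), and at 8 h none was called in limma (1 higher and 3 lower without the adjustment; 1 higher and 1 lower with the adjustment but without control replicate 3). H2AX, the variant phosphorylated at DNA breaks, read 7.34, 7.15 and 7.75 in controls, 6.96, 6.96 and 6.78 at 8 h, and 7.86, 8.05 and 8.26 at 20 h. It rose by 0.64 at 20 h (SE 0.15, limma adjusted p = 0.00897), while its 8 h difference of -0.51 was not called (adjusted p = 0.0584). The linker variant H1-10 rose by 1.39 at 20 h, and the variants H2AZ2 and MACROH2A1 fell, with differences of -1.25 and -0.64 (limma adjusted p between 8.17e-05 and 0.000241 for the 3 genes).

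Genes that act on histone transcripts were measured for 24 of the 27 listed. At 20 h 5 rose and 10 fell, against 13.1% and 17.2% of all genes, with a median of -0.24. At 8 h 1 rose and 6 fell, against 5.93% and 6.28% of all genes. Without control replicate 3, 2 rose and 8 fell at 8 h, and 6 rose and 11 fell at 20 h. NPAT, the coactivator that turns on histone genes at S phase entry, read 8.93, 8.88 and 8.82 in controls, 8.87, 8.90 and 9.01 at 8 h, and 7.93, 7.92 and 7.74 at 20 h. It fell by 1.01 at 20 h (SE 0.08, limma adjusted p = 9.51e-06), with no overlap. SLBP, the stem-loop binding protein, read 8.49, 8.24 and 8.58 in controls, 8.24, 8.20 and 8.15 at 8 h, and 8.24, 8.22 and 7.84 at 20 h, and was not called (20 h difference -0.34, SE 0.12, adjusted p = 0.0685). ERI1, an exonuclease that trims and degrades histone mRNA ends, was not called against control either (20 h difference -0.17, limma adjusted p = 0.222).

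The largest changes in that list were falls at 20 h, with a difference of -1.40 for CCNE2 (cyclin E2, whose kinase activates NPAT), -1.36 for CPSF3 (the nuclease that cuts histone and polyadenylated pre-mRNAs), -1.13 for the cap-binding protein gene NCBP1 and -1.06 for the CPSF3 partner gene CPSF2 (limma adjusted p up to 0.000216). CASP8AP2, another histone gene regulator, was not analysed here. Of the 13 measured polyadenylation factors, 3 rose and 7 fell at 20 h, against 13.1% and 17.2% of all genes, with a median of -0.32. CSTF3, NUDT21 and CSTF2T, subunits of the cleavage machinery, fell, with differences of -1.16, -1.10 and -1.02, and RBBP6 rose by 1.02 (limma adjusted p up to 0.000926). At 8 h 3 of them rose and 2 fell, against 5.93% and 6.28% of all genes.

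Histone chaperones, which carry new histones to DNA, were measured for 25 of the 28 listed. At 20 h 13 fell and 2 rose, against 17.2% and 13.1% of all genes, with a median of -0.44. At 8 h 5 fell and 3 rose, against 6.28% and 5.93% (3 fell without 8 h replicate 2, 8 h replicate 3 or 20 h replicate 3). The fall count was also 3 with only the 2 groups compared in the fit and with 8 h replicates 1 and 2 counted as 1. The largest falls at 20 h were in MMS22L (difference -2.33), which acts at stalled replication forks, in CHAF1B (-1.85), a subunit of the CAF-1 assembly factor, in HJURP (-1.71), the chaperone of the centromeric H3 variant, and in the H3-H4 chaperone gene ASF1B (-1.65), with limma adjusted p up to 2.67e-05.

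Genes of S phase and DNA replication all moved one way. Of 36 measured of 37 listed, 36 fell and 0 rose at 20 h (also 0 without the adjustment, in limma), against 17.2% lower and 13.1% higher of all genes, with a median of -1.41 and a range from -2.42 to -0.42. At 8 h 23 fell and 0 rose (also 0 without the adjustment, in limma), against 6.28% and 5.93%, with a median of -0.40. At 8 h the count was 15 without 8 h replicate 2 and also with 8 h replicates 1 and 2, the closest pair of arrays, counted as 1. The histone genes, whose expression belongs to the same phase of the cycle, had a median of 0.22 at 20 h and -0.17 at 8 h in the same fit. Their median control level was 3.83, against 7.23 for the S phase list. A cut at a mean level of 7 was chosen after the values were seen. Above it, 4 of 5 histone genes fell and 0 rose at 20 h (median -0.64), and of the 23 others 12 rose and 2 fell. Of the 5 shared probe sets above it, 4 fell and 1 rose at 20 h, and of the 33 others 18 rose and 2 fell. Shares of all genes at these levels are not given, and no test of the difference between the lists was made.

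**Figure D5:**
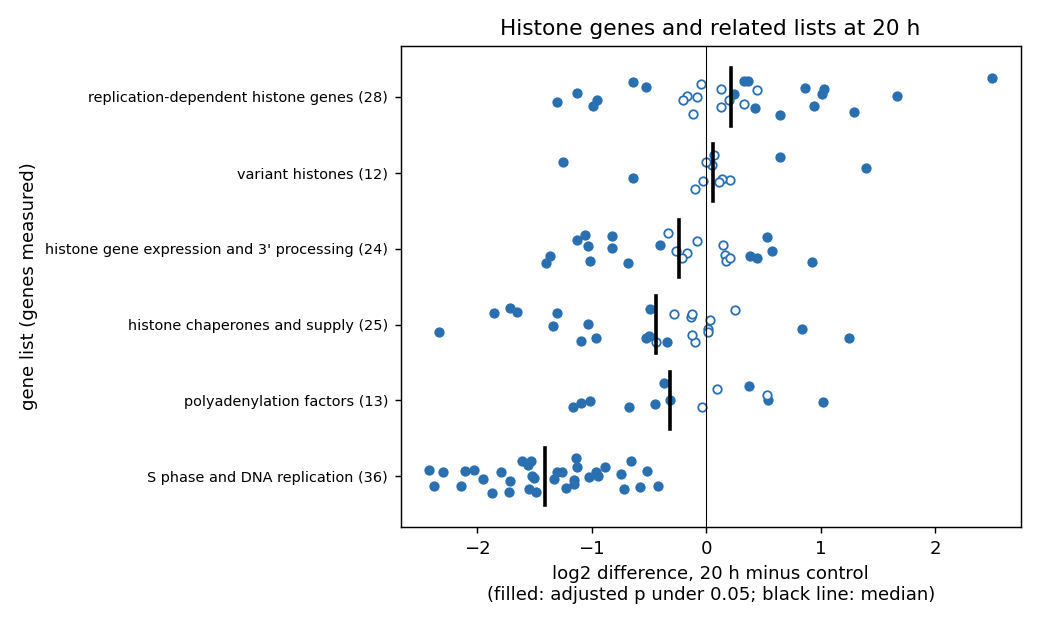
Difference of 20 h from control (log2) for each measured gene of the histone genes and 5 related lists, with the list median as a black line; filled points had an adjusted p under 0.05. The 36 S phase and DNA replication genes all lie below 0, whereas the 28 histone genes lie on both sides with a median of 0.22.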

How the data were processed

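The authors deposited log2 expression values, 1 for each of 53617 probe sets on each of 9 arrays, made by RMA in Affymetrix Expression Console per the submitters' processing notes. Software versions and genome build are not given in the sources used here. Arrays give no count depth. Of 25713 probe sets in the platform annotation, 23558 carried 1 symbol and 2155 several, and the brightest probe set by its mean over the 9 arrays stood for each of 22109 genes. No other filter was applied. One limma model (3.58.1, R 4.3.3, lmFit and eBayes) held a mean for each of the 3 groups, with 6 residual and 4.01 prior degrees of freedom, and two-sided p-values had a Benjamini-Hochberg adjustment over all genes. An added fit over all annotated probe sets served the shared ones. The fit was tested on simulated data.

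The members, the related lists and the naming rule were chosen with earlier results of these data known. Every array value is given for members called against control with an absolute log2 change of at least 0.8 and for the brightest of each class. H1-2, H2BC3, H2BC21 and shared probe sets were shown in addition after their values were seen, as were motifs and printed promoters. Of related lists, up to 4 called genes with the largest 20 h change are named, together with NPAT, SLBP, ERI1, CASP8AP2 and H2AX. Over all genes, deviations of same-numbered arrays from their group means correlated between -0.19 and 0.06. With 3 arrays per group this cannot show whether the replicate numbers in the labels pair the arrays, so the block is given as an alternative. Promoter windows were matched by symbol to RefSeq (GRCh38.p14). Tables and figures used Python 3.11.15 with pandas 2.3.3, numpy 2.4.6 and matplotlib 3.10.9.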

Additional observations from a re-analysis of the deposited data

Results flagged for a closer look

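The change from control differed between the treated groups for 14 histone genes by the limma test of 20 h against 8 h, in which dose differed as well as time. The log2 difference of 20 h from 8 h was 2.60 for H2BC18, 1.74 for H2BC17, 1.56 for H3C13, 1.54 for H2AC6 and 1.52 for H2BC5. It was 0.92 for H2BC21, 0.89 for H2BC11, 0.82 for H2BC3, 0.60 for H2BC13 and 0.58 for H2BC12. The linker genes H1-3 and H1-1 differed by 0.39 and 0.38. H2AC21 and H2BC9 were lower at 20 h, by -0.45 and -0.58. Of the 14 calls, 8 held under every alternative in which the gene was tested, and those of H1-1, H2AC21, H2BC3, H2BC9, H2BC11 and H2BC13 were lost under at least 1.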

How the results depend on the processing

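No member's direction reversed with a call under any of the 19 alternatives. With only genes above the median level tested, 6 histone genes rose at 20 h in place of 12, since 14 of the 28 were then left out, and 1 was lower than at 8 h in place of 2. The latter count was also 1 with the replicate block and with 8 h replicates 1 and 2 counted as 1. Leaving out each array in turn gave 5 to 8 genes lower at 8 h, 9 to 12 higher and 4 to 6 lower at 20 h, and 9 to 14 higher and 0 to 2 lower at 20 h against 8 h, while 0 were higher at 8 h throughout. With the replicate block the other counts were the main ones, but not all of the same genes, as 7 of the 8 lower at 8 h, 10 of the 12 higher and 6 of the 6 lower at 20 h, and 11 of the 12 higher at 20 h against 8 h were shared. The block ended the calls of H1-2 at 8 h and of H1-1 and H1-6 at 20 h. Of the 8 calls at 8 h, 5 held in every alternative in which the gene was tested, and of the 18 at 20 h, 12 did. With only those above the median level, 8 shared probe sets rose at 20 h in place of 19 and 10 were higher than at 8 h in place of 20, and a repeated quantile normalization gave 4 lower than at 8 h in place of 2. It also gave 9 genes of histone expression and processing higher at 20 h in place of 5. Low signal limits the calls on H1-1, H1-3, H1-5, H1-6 and H4C7.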
